A study of Homo sapiens with 3 samples.

Results

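Expressed LINC genes, which encode long non-coding RNAs, were described in NB4 cells, a human acute promyelocytic leukaemia line, after silencing of ARID1B. The members were chosen by symbol and by measured counts: rows whose Ensembl ID has a GENCODE 29 symbol made of LINC and 5 digits and whose counts summed over the 3 libraries reached at least 100. Of 57773 rows in the count table, 1764 carried such a symbol and 123 met the minimum. Of the 1764, 1131 had 0 counts in all 3 libraries.

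ARID1B was silenced with short hairpin RNAs (shRNAs) in 2 NB4 libraries, with hairpin 2 in one and hairpin 3 in the other. A control shRNA was used in 1 NB4 library. All 3 came from cells kept in serum-supplemented RPMI, and polyA RNA was sequenced. Nothing in the labels ties the libraries to separate cultures or infections, so the p-values reflect the spread between these libraries alone, and that spread may be technical.

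LINC is the symbol root that the gene naming committee gives to long intergenic non-coding RNA genes for which no function or neighbour supplies a name. Such genes are transcribed by RNA polymerase II and are often capped, spliced and polyadenylated like mRNA, but most are transcribed at low levels and in few cell types. Some act on the gene next to them, some act elsewhere, and for many no function is known. ARID1B is a DNA-binding subunit of the BAF complex, which moves nucleosomes at promoters and enhancers, the elements from which long non-coding RNAs also start.

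ARID1B itself had 2209 counts under hairpin 2, 2234 under hairpin 3 and 5268 in the control library. Hairpin 2 left 43.3% of the control level and hairpin 3 left 42.2%, with exact 95% counting intervals of 41.2 to 45.5 and 40.2 to 44.4. Its log2 fold change was -1.23 ± 0.125 (SE; edgeR quasi-likelihood test, adjusted p = 1.4e-05). Libraries held 59997475 to 62954803 counts. Of 8 promyelocyte markers, MPO, AZU1, PRTN3, CTSG, CD33, ANPEP and CEBPE were well detected and ELANE was nearly absent, with 4, 1 and 10 counts under hairpin 2, under hairpin 3 and in the control library. PRTN3 and ANPEP were called higher (log2 fold change 2.11 and 0.87; edgeR adjusted p = 7.5e-07 and 0.00426) and CTSG lower (-1.81; adjusted p = 1.2e-06). Markers of eosinophils, basophils and mast cells moved with the hairpins: 9 of the 11 that could be tested were called higher, and the 12 listed genes summed to 2150 and 1130 CPM (counts scaled by TMM library size) under hairpins 2 and 3, against 93.3 CPM in the control library, with FCER1A at 0 counts. In bulk RNA, a change in the share of cells of a type cannot be told apart from a change in RNA per cell. Sums of monocyte markers were 74.1 and 51.6 CPM under the hairpins and 32.1 CPM in the control library (3 of 5 tested called higher, none at 0), and those of megakaryocyte markers 45.5, 16.7 and 2.26 CPM in the same order (1 of 1, with PF4 and GP9 at 0). T, NK and B cell markers summed to 61.4, 46.4 and 33.7 CPM (2 of 4, MS4A1 at 0), mature neutrophil markers to 5.72, 3.43 and 2.13 CPM (1 of 1, CEACAM8 at 0), and epithelial and fibroblast markers to 19.2, 24.1 and 25.6 CPM (1 of 3 lower). Few genes carried some of these sums. In the same order, ITGA2B gave 45.5, 16.7 and 2.24 CPM of the megakaryocyte sums, and CXCR2 5.6, 3.3 and 2.05 CPM of the neutrophil sums. FCN1 (38.7, 20.9 and 10.4 CPM) and CD68 (25.5, 24.7 and 13.7 CPM) gave most of the monocyte sums. CSF1R, also on the monocyte list, was lower under the hairpins without passing (6.58, 4.65 and 7.54 CPM). The part of these cell type markers in the LINC results was not tested.

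The 3 promoters shown belong to the member with the largest fall (LINC01833), the member with the largest rise (LINC02573) and the called member whose coding neighbours on both sides were called in its direction (LINC01215). They are RefSeq sequences on GRCh38.p14, which is not the hg19 build named for the counts. Each covers 250 bases before and 50 bases after an annotated start, and LINC01833 has a second annotated start that is not shown. LINC01833 is chr2:44939150-44939449 on the minus strand, LINC02573 is chr21:20258636-20258935 on the minus strand and LINC01215 is chr3:108125571-108125870 on the plus strand. Capitals mark matches on either strand to AGATAA, the core recognised by GATA factors. They also mark GAGGAA, recognised by ETS factors such as PU.1, and TGANTCA, recognised by AP-1.
LINC01833: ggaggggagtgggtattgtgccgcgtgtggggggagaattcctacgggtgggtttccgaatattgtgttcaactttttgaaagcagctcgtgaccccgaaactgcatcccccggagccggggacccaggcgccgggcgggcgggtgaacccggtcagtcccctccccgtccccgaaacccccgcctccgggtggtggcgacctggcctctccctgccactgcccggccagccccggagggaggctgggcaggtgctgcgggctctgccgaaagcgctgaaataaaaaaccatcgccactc
LINC02573: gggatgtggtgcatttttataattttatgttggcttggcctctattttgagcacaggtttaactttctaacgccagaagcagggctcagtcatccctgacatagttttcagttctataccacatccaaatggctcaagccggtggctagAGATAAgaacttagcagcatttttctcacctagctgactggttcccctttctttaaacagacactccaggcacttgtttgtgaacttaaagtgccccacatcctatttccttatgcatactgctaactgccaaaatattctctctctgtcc
LINC01215: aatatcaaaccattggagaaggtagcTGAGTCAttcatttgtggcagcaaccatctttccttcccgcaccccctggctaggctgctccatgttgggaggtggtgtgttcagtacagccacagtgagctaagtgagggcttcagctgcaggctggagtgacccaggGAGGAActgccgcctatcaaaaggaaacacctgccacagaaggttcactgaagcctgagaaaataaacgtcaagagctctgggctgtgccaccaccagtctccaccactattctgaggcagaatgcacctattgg

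The LINC01833 promoter was rich in G and C (66.3%) with 24 CpG pairs and held none of the 3 motifs. The LINC02573 promoter had 43.0% G and C, 2 CpG pairs and 1 AGATAA. The LINC01215 promoter had 52.7% G and C and held both TGANTCA and GAGGAA. RefSeq promoters were matched for 69 of the 123 members, at 78 starts. AGATAA occurred in 12.8% of these promoters and in 10.3% of all 35116 promoters of the table, GAGGAA in 35.9% and 27.9%, and TGANTCA in 12.8% and 7.71%. A match is a run of letters and no measure of binding, and a promoter without one lacks only those letters in this window.

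LINC genes were expressed at low levels in these cells, with a few exceptions. Levels were compared per length, as CPM per kilobase of GENCODE 29 exon (RPKM) averaged over the libraries. The median member stood at 0.771 RPKM (quartiles 0.484 and 1.69), against 6.0 RPKM for coding genes with at least 100 counts and 2.79 RPKM for other long non-coding RNA genes with at least 100 counts. The other long non-coding RNA genes were shorter, with a median of 1068 bases of exon against 2845 for the members. Their median summed counts were 627 and 419. A minimum on counts asks a higher RPKM of a shorter gene, and the part of length in the RPKM gap was not tested. The members ranged from 0.0872 to 32.5 RPKM. Together they took 0.0643% of all counts under hairpin 2, 0.0611% under hairpin 3 and 0.0707% in the control library.

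A few genes held much of this signal. LINC00926 alone accounted for 18.3% of the members' counts, and the 5 with most counts for 37.2%. Without LINC00926 the members summed to 32369 counts under hairpin 2, 32707 under hairpin 3 and 33511 in the control library, so most of the difference in the summed counts came from this gene. By level per length LINC00926 was followed by LINC01578 (8.12 RPKM), LINC01089 (7.45), LINC00843 (6.90), LINC01215 (6.76), LINC00674 (6.72), LINC00888 (6.14) and LINC02506 (5.97). LINC01578, also known as CHASERR, is known in mouse to hold down its neighbour CHD2, which encodes a chromatin remodeller. It had 2497 and 2737 counts under hairpins 2 and 3, against 2855 in the control library, with a log2 fold change of -0.11 ± 0.131 (SE), and CHD2, looked up after the values were seen, had 0.10 ± 0.128. Neither passed the test in edgeR (adjusted p = 0.724 and 0.738).

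By GENCODE 29 type, 89 members are intergenic lincRNA genes, 12 antisense genes, 10 processed transcripts and 8 transcribed pseudogenes, and 1, LINC02218, is typed as protein coding despite its symbol. They lie on 23 chromosomes, with the highest numbers on chromosomes 1 (16 genes) and 3 (13 genes). The median member had 4 separate exon blocks and 2845 bases of exon, and 18 members had a single block. For 16 members at least 10% of the exon length is shared with a gene of higher count, on the opposite strand for 10 and on the same strand for 6. Whether the counting used strand is not stated, so the split of reads for these 16 is uncertain. LINC02603 shares the most, 85.7%, with AL158152.1 on the other strand.

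With ARID1B silenced, 5 of the 123 LINC genes were higher and 5 were lower (edgeR quasi-likelihood test, adjusted p under 0.05 over all genes tested), and 113 did not pass. That is 8.13% of the members, against 8.7% of all 20382 genes tested, so the share called was close to the background. By direction, 4.07% of members were called higher against 5.49% of all genes tested, and 4.07% lower against 3.21%. Among genes with at least 100 counts, 11.8% of coding genes were called (7.65% higher, 4.19% lower), and 6.39% of other long non-coding RNA genes (3.81% higher, 2.57% lower). The median log2 fold change was -0.12 over the members, -0.01 over all genes tested and -0.06 over other long non-coding RNA genes with at least 100 counts. With DESeq2-type size factors it was -0.11 over the members and 0.0 over all genes tested, and with upper quartile factors -0.17 and -0.06. The minimum on summed counts uses all 3 libraries, which favours genes high under either hairpin: 11 members have so few control counts that 3 libraries at that level would have missed 100, and 6 members miss it likewise at the mean of the hairpin libraries. All 123 members entered the test, since a sum of 100 exceeds the filter on low counts.

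**Figure D1:**
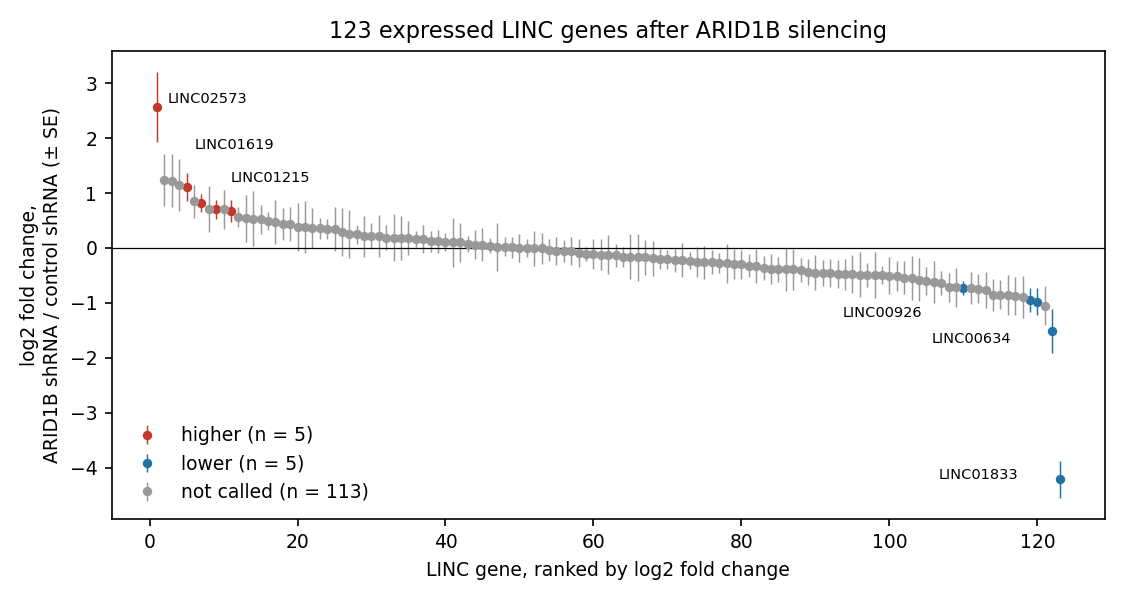
Log2 fold change of each of the 123 LINC genes (ARID1B shRNA over control shRNA), ranked from highest to lowest, with the SE as bars; red and blue points passed the test upward and downward (5 each) and grey points did not. Most genes lie within 1 log2 unit of 0, and LINC01833 at -4.21 and LINC02573 at 2.57 stand apart.

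The largest change among the 123 members was the near loss of LINC01833, an intergenic transcript on chromosome 2. It had 12 counts under hairpin 2 and 32 under hairpin 3, against 415 in the control library. This is 0.356 ± 0.222 CPM (SD, n = 2) in the ARID1B shRNA libraries and 6.68 CPM in the control library. Both hairpin libraries lie far below the control. LINC01833 reached the minimum on summed counts through the control library, so its presence among the members is tied to its direction. The log2 fold change was -4.21 ± 0.335 (SE), 18.5-fold lower (edgeR adjusted p = 1.5e-06). Against the control, hairpin 2 alone had a log2 difference of -4.86 and hairpin 3 alone one of -3.62, which is 12.3-fold lower (prior count of 2, no test). The nearest coding gene on one side is SIX3, a homeobox gene of eye and forebrain development, on the opposite strand and within 100 kb. SIX3 was called lower too (edgeR adjusted p = 0.00493), with 2 counts under hairpin 2, 0 under hairpin 3 and 23 in the control library. The hairpin 2 level of SIX3 was 0.0898 times the control level, with an exact 95% counting interval of 0.0103 to 0.363. Under hairpin 3 it was at least 7.7-fold lower, taking 3 counts in that library as the floor.

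LINC00926 on chromosome 15, the member with the highest level, fell as well. It had 6235 and 5750 counts under hairpins 2 and 3, against 10069 in the control library, or 98.0 ± 8.09 CPM (SD, n = 2) against 162 CPM. Under each hairpin the level was below the control, and the hairpins lie close together. The fall was 1.66-fold (log2 fold change -0.73 ± 0.13, SE; edgeR adjusted p = 0.00174). It shares no exon with a gene of higher count, and neither of its coding neighbours was called.

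The other 3 lower genes were of low or middle abundance. LINC02593 on chromosome 1 had 124 and 133 counts under hairpins 2 and 3, against 257 in the control library (log2 fold change -0.98 ± 0.243, SE; edgeR adjusted p = 0.0182). LINC01238 on chromosome 2 had 187 and 183 counts under the hairpins and 363 in the control library (-0.95 ± 0.218; adjusted p = 0.0109). In both genes the hairpin libraries were nearly equal and stood at about the same distance below the control. LINC00634, a transcribed pseudogene on chromosome 22, had 19 and 41 counts under the hairpins and 87 in the control library (-1.51 ± 0.403; edgeR adjusted p = 0.027). Its hairpin libraries differed from each other by 0.99 on the log2 scale, with hairpin 2 the lower. LINC00634 also reached the minimum on summed counts through the control library, so its presence among the members is tied to its direction.

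The largest rise among the members was in LINC02573, an intergenic gene on chromosome 21. It had 33 counts under hairpin 2 and 62 under hairpin 3, against 8 in the control library, or 0.772 ± 0.315 CPM (SD, n = 2) against 0.129 CPM. The ratio to the control was 4.26 under hairpin 2 (exact 95% counting interval 1.93 to 10.7) and 7.72 under hairpin 3 (3.68 to 18.7). The fitted log2 fold change was 2.57 ± 0.633 (SE; edgeR adjusted p = 0.0174). With 103 counts in all, this gene reached the minimum through the hairpin libraries, so its presence among the members is tied to its direction.

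LINC01619 on chromosome 12 rose 2.16-fold. It had 470 and 325 counts under hairpins 2 and 3, against 187 in the control library (log2 fold change 1.11 ± 0.26, SE; edgeR adjusted p = 0.0126). It shares 13.8% of its exon length, on the same strand, with BTG1, an antiproliferative gene with 26998 counts in all. BTG1 had a log2 fold change of -0.09 ± 0.129 and did not pass (edgeR adjusted p = 0.775). The share of LINC01619 reads that come from BTG1 was not tested.

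LINC01215 on chromosome 3 rose together with the coding genes on both sides. It had 1182 and 1331 counts under hairpins 2 and 3, against 719 in the control library, or 20.5 ± 1.2 CPM (SD, n = 2) against 11.6 CPM. Both hairpin libraries lie above the control and close to each other. The log2 fold change was 0.82 ± 0.159 (SE; edgeR adjusted p = 0.00323). On one side lies CD47, the surface protein that restrains phagocytosis through its receptor SIRPA, with 7765 and 7913 counts under the hairpins, against 5381 in the control library (0.56 ± 0.131; edgeR adjusted p = 0.0118). On the other side lies IFT57, a component of intraflagellar transport, with 4663 and 5059 counts under the hairpins, against 2982 in the control library (0.72 ± 0.133; edgeR adjusted p = 0.00213). Both coding genes lie within 100 kb and on the strand opposite to LINC01215.

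LINC00426 and LINC00641 rose less. LINC00426 on chromosome 13 had 1381 and 1109 counts under hairpins 2 and 3, against 777 in the control library (log2 fold change 0.70 ± 0.176, SE; edgeR adjusted p = 0.0192). LINC00641 on chromosome 14 had 681 and 553 counts under the hairpins and 393 in the control library (0.67 ± 0.201; adjusted p = 0.0476). In both genes hairpin 2 gave the higher level, and hairpin 3 lay between it and the control.

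**Figure D2:**
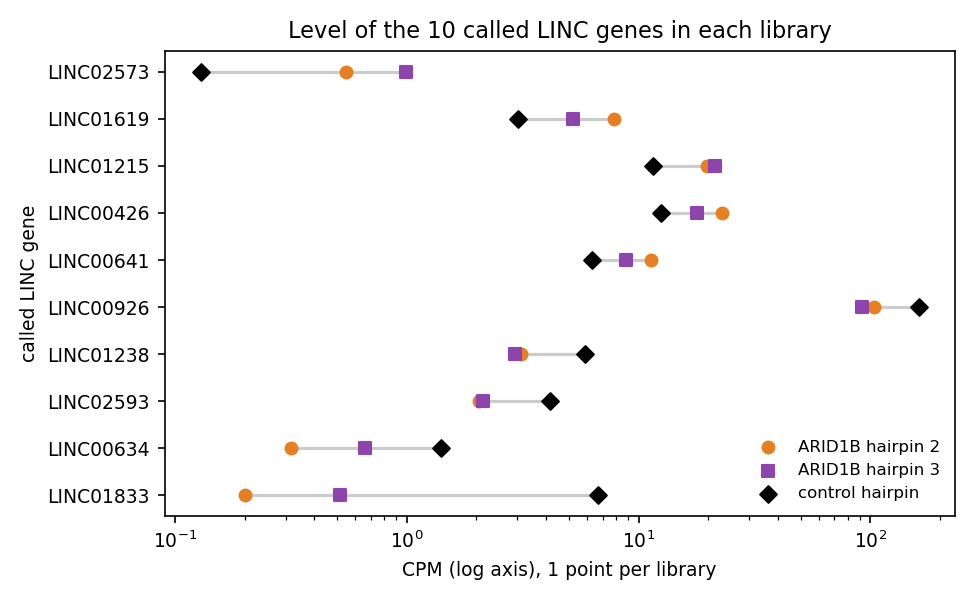
Level of the 10 called LINC genes in each library, in CPM on a log axis, with 1 point for hairpin 2 (circle), hairpin 3 (square) and the control hairpin (diamond). In all 10 genes both hairpin libraries lie on the same side of the control. The genes were chosen by that contrast, so this adds no support to the calls. LINC01833 spans 0.2 to 6.68 CPM.

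Not every call held under other settings. When every gene with a count was kept, edgeR passed none (0 of 32925; 3218 at an unadjusted p under 0.05, 24 of them members), so each call above was lost there, including that of ARID1B (adjusted p = 0.465). With DESeq2 the calls of LINC01833, LINC00926, LINC01215, LINC01619 and LINC00426 held and those of LINC02573 (adjusted p = 0.123; 0.00425 to 0.47 over the alternatives), LINC01238 (0.113; 0.00571 to 0.465), LINC02593 (0.198; 0.0104 to 0.465), LINC00634 (0.373; 0.0136 to 0.47) and LINC00641 (0.162; 0.0286 to 0.47) were lost. LINC00641 was also lost with upper quartile factors (edgeR adjusted p = 0.0592) and with robust empirical Bayes (0.0591), and when testing stopped at a mean of 1 CPM, LINC00641, LINC00426 and LINC01619 were lost (0.111, 0.0736 and 0.0644) while LINC00634 and LINC02573 were not tested.

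The error of the log2 fold change was larger for members with fewer counts. Of 51 members with under 300 counts in all, 2 were called, and their median SE was 0.387 on the log2 scale. Of 45 members with 300 or more but under 1000 counts, 4 were called (median SE 0.258), and of 27 with at least 1000 counts, 4 (median SE 0.176). Over all genes tested 8.7% were called, and their shares in these ranges of counts were not computed. The median SE over coding genes with at least 100 counts was 0.146. In all, 4 members with a fitted change of at least 2-fold were not called. These were LINC01140 (39 and 50 counts under hairpins 2 and 3, against 19 in the control library), LINC01366 (42 and 41 against 18), LINC01624 (89 and 46 against 31) and LINC02175 (35 and 41 against 80). In that order, their adjusted p in edgeR was 0.137, 0.149, 0.17 and 0.0859. LINC01140 shares 17.4% of its exon length with AC093155.3 on the same strand. LINC01140, LINC01366 and LINC01624 reached the minimum on summed counts through the hairpin libraries. Their presence among the members is thus tied to their direction. At an unadjusted p under 0.05 in edgeR, 30 of the 123 members passed, 11 higher and 19 lower, against 4226 of all 20382 genes tested. The split by direction over all genes was not computed at that limit.

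**Figure D3:**
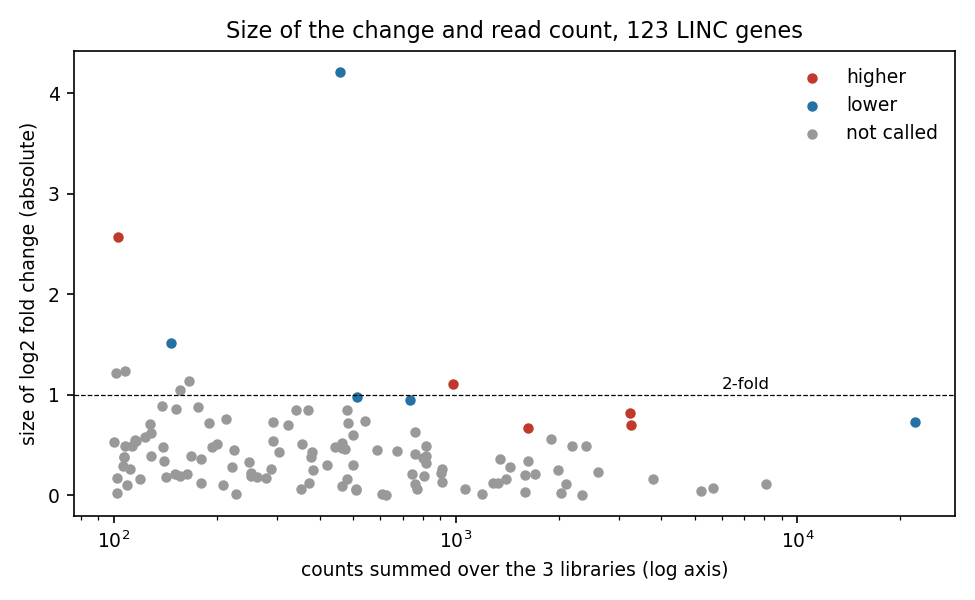
Size of the log2 fold change of the 123 LINC genes (absolute value) against their counts summed over the 3 libraries (log axis); red and blue points were called higher and lower, grey points were not called, and the dashed line is a 2-fold change. The 4 grey points above the line each have under 300 counts, while LINC00926 at 22054 counts was called at a size of 0.73.

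At the edge of the minimum, LINC02352 had 48, 26 and 26 counts under hairpin 2, under hairpin 3 and in the control library, LINC01366 had 42, 41 and 18, and LINC01534 had 36, 32 and 34. Just below it, LINC00237 had 28, 20 and 48 counts in the same order, LINC01424 had 30, 28 and 37, and LINC01579 had 23, 26 and 45. None of these 6 passed the test. In all, 102 LINC genes under the minimum were tested, of which 2 were called higher and 1 lower in edgeR. Over all 20382 genes tested, 8.7% were called. LINC01602 had 41 and 30 counts under the hairpins against 8 in the control library, LINC01270 had 14 and 7 against 0, and LINC01115 had 2 and 2 against 17. Each had fewer than 10 counts on its lower side. Each thus passed the filter on low counts (minimum count 10) through its higher side.

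Under both hairpins 35 members were higher and 62 were lower than the control, and 26 were on opposite sides (log2 CPM with a prior count of 2, no test). Both hairpins are set against the same control library, which by itself puts genes on the same side, so these counts show no agreement between the hairpins. The difference between the hairpins had a median size of 0.21 on the log2 scale. At a mean CPM of at least 1, the members highest under hairpin 2 relative to hairpin 3 were LINC00599 (0.80), the host gene of a miR-124 precursor, LINC01619 (0.58), LINC00526 (0.55) and LINC00539 (0.45). Those highest under hairpin 3 were LINC01833 (-1.23), LINC00887 (-0.71), LINC01355 (-0.71) and LINC02367 (-0.64). LINC00599 had 309 and 183 counts under hairpins 2 and 3, against 270 in the control library. With 1 library a hairpin, these differences have no replicate check. LINC00526 shares 41.2% of its exon length with LINC00667 on the other strand, so its value is uncertain.

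A coding gene called higher or lower overlapped or lay next to 19 of the 123 LINC genes (15.4%), where next to means the nearest coding gene on each side in GENCODE 29. The same held for 18.7% of coding genes and 23.7% of other long non-coding RNA genes with at least 100 counts, so a called neighbour was not more frequent at LINC genes. Of the 19, 14 had the coding gene overlapping or within 100 kb. That is 11.4% of the members, against 16.3% of coding genes and 20.4% of other long non-coding RNA genes. The 19 members formed 22 pairs with called coding genes, 18 of which were higher and 4 lower. In 13 pairs the LINC gene and the coding gene had fold changes of the same sign and in 9 the opposite sign. Both genes were called in only 3 pairs, LINC01833 with SIX3 and LINC01215 with CD47 and with IFT57, each in the same direction. Among other long non-coding RNA genes 135 of 144 such pairs moved the same way (93.8%), and among coding genes 797 of 876 (91.0%). Most of these background pairs overlap, and none of the 3 LINC pairs does. Overlapping pairs moved the same way in 106 of 106 among other long non-coding RNA genes and in 569 of 581 among coding genes. The share over pairs without overlap was not computed, so 3 of 3 has no like background and is not read as an excess.

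In the other 19 pairs the coding gene was called and the LINC gene was not. S100P, a calcium-binding protein, rose by 1.5 ± 0.17 on the log2 scale (edgeR adjusted p = 3.3e-05), with 8405 and 6478 counts under the hairpins against 2675 in the control library. LINC02482 beside it had 165 and 178 counts under the hairpins and 121 in the control library (0.52 ± 0.269), and it shares 18.3% of its exon length with AC093323.1. ITGB2, the CD18 integrin subunit of leukocytes, rose by 1.36 ± 0.163 (edgeR adjusted p = 5.2e-05), while LINC01547 beside it had 45 and 33 counts under the hairpins and 33 in the control library. LCP2, the adaptor SLP-76, rose by 1.09 ± 0.163 (edgeR adjusted p = 4.0e-04), and LINC01366 beside it had the counts given above, with a log2 fold change of 1.22 ± 0.482. KLHL6 rose by 1.11 ± 0.209 (edgeR adjusted p = 0.00283) next to LINC00888, which had 892 and 879 counts under the hairpins, against 639 in the control library (0.49 ± 0.165; adjusted p = 0.082). These LINC genes lay above the control in at least 1 hairpin library but did not pass. At the control level in all 3 libraries, LINC01366 and LINC01547 would have missed the minimum on summed counts.

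ZC3H12A, the RNA-degrading enzyme Regnase-1, rose by 0.67 ± 0.181 (edgeR adjusted p = 0.0281) beside LINC01137 on the opposite strand, which had 43 and 43 counts under the hairpins, against 30 in the control library. BDH1, an enzyme of ketone body metabolism, fell by 0.46 on the log2 scale (edgeR adjusted p = 0.0357), and LINC02012 beside it had 83 and 85 counts under the hairpins, against 124 in the control library. In both pairs the LINC gene differed from the control in the direction of its neighbour without passing the test. LINC01137 reached the minimum on summed counts through the hairpin libraries.

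In other pairs the signs differed. RUBCNL, an autophagy regulator, rose by 1.27 ± 0.261 (edgeR adjusted p = 0.00513), and LINC00563 had 29 and 37 counts under the hairpins, against 49 in the control library. ZBTB42, a zinc finger protein, rose by 0.69 ± 0.181 (edgeR adjusted p = 0.0257) beside LINC00638, with 75 and 83 counts under the hairpins and 93 in the control library. KPNA2, an importin, rose by 0.52 ± 0.139 (edgeR adjusted p = 0.0261), and LINC00674 had 293 and 293 counts under the hairpins, against 325 in the control library. None of these 3 LINC genes passed, so the opposite signs are not established changes.

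Coding genes that overlap a LINC gene were called in 3 pairs. TPST1, a tyrosine sulfotransferase, rose by 1.42 ± 0.248 (edgeR adjusted p = 0.0015), while LINC00174 on the other strand had 791 and 851 counts under the hairpins, against 974 in the control library (-0.23 ± 0.156). RHOF, a small GTPase, rose by 0.48 ± 0.137 (edgeR adjusted p = 0.0387). LINC01089 shares 41.7% of its exon length with RHOF on the same strand and had 1989 and 1840 counts under the hairpins, against 1850 in the control library (0.07 ± 0.141). LINC00893 lies across AC244197.3 (0.81 ± 0.188; edgeR adjusted p = 0.0118) and next to IDS, the lysosomal iduronate sulfatase (0.88 ± 0.172; adjusted p = 0.00347). LINC00893 had 75 and 102 counts under the hairpins, against 101 in the control library. The overlapping LINC genes thus did not pass where the coding genes did, although LINC01089 and LINC00893 share 41.7% and 27.4% of their exon length with them.

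**Figure D4:**
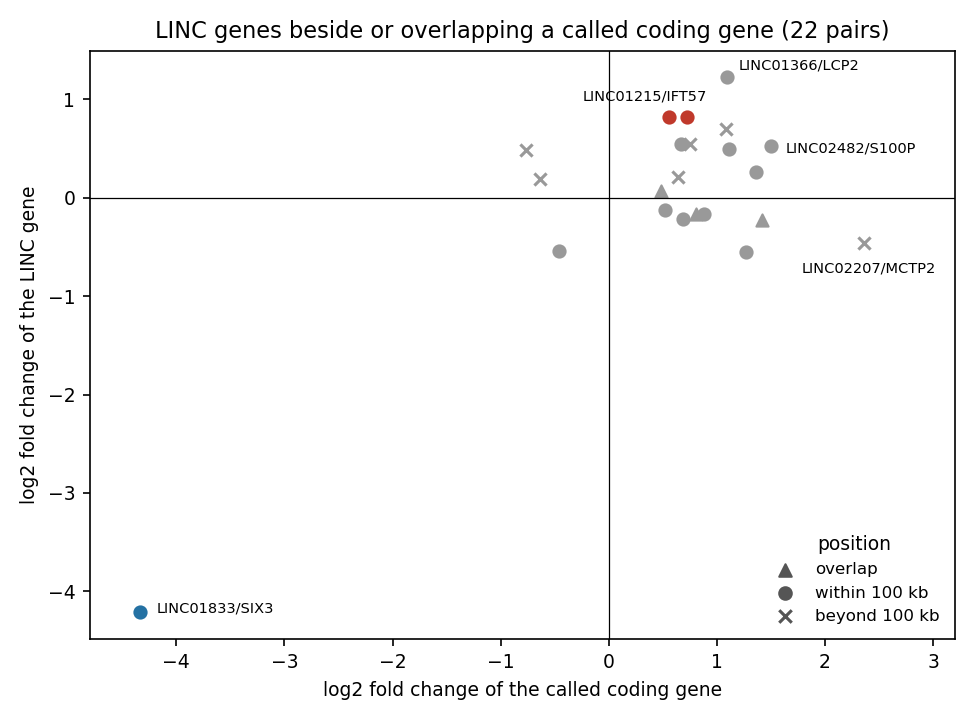
Log2 fold change of the LINC gene (vertical axis) against that of the called coding gene beside or across it (horizontal axis) in 22 pairs; the symbol gives the position and the colour whether the LINC gene was called (red higher, blue lower, grey not called). Points of either sign occur on both axes, with LINC01833 and SIX3 (fitted values of -4.21 and -4.34) apart at the lower left; the fitted value of SIX3 rests on a count of 0 in 1 library.

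The called coding gene lay beyond 100 kb in 6 pairs, and no LINC gene of these passed. In 3 of them the signs were the same: LINC01137 with GRIK3 (0.54 and 0.75 on the log2 scale), LINC01222 with PTPRC (0.21 and 0.64) and LINC00887 with HES1 (0.70 and 1.08). The signs were opposite for LINC02506 with ARAP2 (0.19 and -0.64), LINC00399 with IRS2 (0.48 and -0.77) and LINC02207 with MCTP2 (-0.46 and 2.36).

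Long non-coding RNA genes with names of another kind were read from a list of 55, of which 51 had a row and 45 could be tested. Of the 45, 1 was higher and 4 were lower (edgeR), 11.1% in all against 8.7% of all genes tested, with a median log2 fold change of -0.11 against -0.01. MIR4435-2HG, known as Morrbid for its role in myeloid cell survival in mouse, had 657 and 540 counts under hairpins 2 and 3, against 353 in the control library (0.78 ± 0.203; edgeR adjusted p = 0.0233). H19, an imprinted gene, had 219 and 327 counts under the hairpins, against 720 in the control library (-1.38 ± 0.211; edgeR adjusted p = 4.7e-04). HOTTIP, transcribed at the end of the HOXA cluster, had 256 and 284 counts against 476 (-0.80 ± 0.199; edgeR adjusted p = 0.0184). The nuclear RNAs NEAT1, the scaffold of paraspeckles, and MALAT1, of nuclear speckles, were lower too (-0.74 ± 0.132 and -0.60 ± 0.134; edgeR adjusted p = 0.00171 and 0.00895). HOTAIRM1, a myeloid RNA of the HOXA cluster, had 273 and 206 counts under the hairpins, against 245 in the control library (-0.01 ± 0.246), and did not pass.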

How the data were processed

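A set of 3 libraries of polyA RNA from NB4 cells were read from 1 table of raw counts per Ensembl gene ID, deposited by the authors without normalization. STAR, featureCounts and Cufflinks and the build hg19 are named, with no roles or versions, per the submitters' processing notes; for the annotation release and use of strand, the entry is: not given in the sources used here. GENCODE 29 named 52338 of 57773 IDs. It describes another build, so it served for names, types, exon length and gene order only, and overlaps were found with bedtools 2.31.1.

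The analysis ran in edgeR 4.0.16 (R 4.3.3) on raw counts: filterByExpr by group (minimum count 10, 20382 genes), TMM, estimateDisp, glmQLFit (legacy = FALSE) and glmQLFTest, two-sided, with Benjamini-Hochberg adjustment over all genes and a threshold of 0.05. Only 1 residual degree of freedom was left, the spread between the hairpins. The test combined it with a prior of 14.8 degrees of freedom taken from the genes tested. The error of each gene thus rests largely on the spread over many genes, and less on its own 2 hairpin libraries. The control is assumed to vary like the hairpins. SE is the log2 fold change over the square root of F. Total counts were 59997475 (hairpin 2), 62954803 (hairpin 3) and 61640692 (control); 3 counts stand at 0.0499, 0.0481 and 0.0483 CPM. Exact 95% intervals and floors cover counting error only, as reads carry no molecular identifiers. DESeq2 1.42.0 was an alternative. The fit was tested on simulated data. A marker list with an item that is not reported here was left out of the text.

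The members, lists and tests were chosen with earlier results of these data known. Genes named were the called members, the 8 highest per length, members overlapping or within 100 kb of a called coding gene, the 4 furthest apart between hairpins each way at a mean CPM of at least 1, the 3 on each side of the minimum, and up to 6 other long non-coding RNAs; CHD2, BTG1, the 4 uncalled members past 2-fold the 3 called LINC genes under the minimum, the pairs beyond 100 kb, LINC01237, LINC02210, LINC02218, LINC02603 and the named cell type markers were added after their values were seen.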

Additional observations from a re-analysis of the deposited data

Results flagged for a closer look

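In 3 of the 123 LINC genes the hairpins lay on opposite sides of the control, with both exact 95% counting intervals away from 1. LINC01355 had 192 counts under hairpin 2 and 327 under hairpin 3, against 252 in the control library. The ratio to the control was 0.787 under hairpin 2 (interval 0.649 to 0.953) and 1.29 under hairpin 3 (1.09 to 1.53), a difference of -0.71 on the log2 scale (hairpin 2 minus hairpin 3). LINC00654 had 154 and 249 counts under hairpins 2 and 3, against 205 in the control library, a difference of -0.63, with ratios of 0.776 (0.625 to 0.961) and 1.21 (1.002 to 1.463). LINC00599 had 309 and 183 counts under the hairpins, against 270 in the control library, a difference of 0.80, with ratios of 1.18 (1.0 to 1.396) and 0.675 (0.5565 to 0.8175). For LINC00654 and LINC00599 an interval ends almost at 1, so their place here is marginal. With 1 library a hairpin these differences were not tested, and the intervals cover counting error only. The share of all genes that meet this rule was not computed, so 3 of 123 has no background here.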

How the results depend on the processing

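No paired analysis was possible because the groups share no replicate number and the control is 1 library. With all genes kept whatever their counts, edgeR made no call: 0 genes were higher and 0 lower, 0 LINC members were called in either direction, 0 were beside a called coding gene, and ARID1B kept its log2 fold change of -1.23 (adjusted p = 0.465; 4.9e-10 to 0.465 over the alternatives). At an unadjusted p under 0.05, 3218 genes passed there and 4226 in the filtered fit, and DESeq2 called 775 higher. With a mean CPM of at least 1, 622 genes were higher and 338 lower (1119 and 655 in the filtered fit), 1 member was higher and 11 members lay beside a called coding gene (19 in the filtered fit). With DESeq2 277 genes were lower, 3 members were higher and 2 lower, and 12 lay beside a called coding gene. At a minimum of 300 summed counts 10 of 72 members lay beside a called coding gene, with no share of other genes computed at that minimum. When only overlapping genes counted, 3 of 123 members were marked (2.44%), against 3.53% of coding genes and 10.6% of other long non-coding RNA genes. Upper quartile factors changed the share of calls that were higher to 53.8% and DESeq2 to 73.7%, against 63.1%. The cause of these differences was not tested. Of the 10 called members, 10 were shared with DESeq2-type size factors and with the legacy fit, 9 with upper quartile factors and with robust empirical Bayes, and 5 with DESeq2. LINC01237 (edgeR adjusted p = 0.0508) passed with 3 of 7 alternatives and LINC02210 (0.0757) with 1. With 1 hairpin library left out, ARID1B ranged from -1.24 to -1.21, LINC01833 had -4.86 with hairpin 2 alone and -3.62 with hairpin 3 alone, and LINC02573 had 1.85 and 2.67; these are values with no test, and counts of calls could not be made so.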
